A study of Mus musculus with 30 samples.

Results

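Small leucine-rich proteoglycans (SLRPs) are secreted proteins of the extracellular matrix with a core of leucine-rich repeats, and most of them carry glycosaminoglycan chains. The 10 SLRP genes described here are Dcn, Bgn, Aspn, Lum, Fmod, Prelp, Omd, Ogn, Podn and Ecm2, out of 55401 gene identifiers measured. They were chosen by measured levels over all 15 groups, for a rise in intermediates of reprogramming and a loss in induced pluripotent stem cells (iPSCs). Their values in the time courses and in the removal experiment are therefore described without a test. Not every member rose, and no intermediate group mean of Fmod was above day 0 in either arm. Dcn, Lum, Ogn and Prelp were above day 0 in the last intermediate of both time courses, and Bgn, Fmod, Aspn and Podn were not in the chemical one.

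The data are 30 mouse RNA-seq libraries in 15 groups of 2, with gene levels in FPKM (fragments for each kilobase of transcript, divided by the size of the library). In the 4-factor arm, mouse embryonic fibroblasts (MEFs) of genotype 129XOG2 were infected with lentivirus for Oct4, Sox2, Klf4 and c-Myc, induced by 2 µg/ml doxycycline, and were collected on days 0, 2, 4 and 7 and as iPSCs. In the CF1 arm, CF1 MEFs were kept in a small-molecule reprogramming medium and collected on days 0, 4, 8 and 12 and as iPSCs. The iPSCs of both arms were grown on feeder cells in a medium that held 3 µM CHIR99021, 0.2 µM PD0325901 and LIF. In the removal experiment, MEFs of genotype 129XOG2 in chemical reprogramming lost 1 component from day 8 to day 12 and were collected on day 12 as -CHIR, -PD, -VC and -WS, beside CT. CHIR99021 inhibits the kinase GSK3 and PD0325901 inhibits MEK. VC, WS and CT are not expanded in the labels, and CT was taken as the arm from which nothing was removed. Each experiment has a table of its own with 5 groups, and no test was made across tables.

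The depth of each library, estimated from the FPKM and length of single-exon genes of at least 400 bases, was 34500000 to 40100000 fragments. Replicates correlated with r of 0.9715 to 0.9961 over genes. The largest gap between replicates was on day 4 of the 4-factor arm, with 556 genes over 2-fold apart, and CT replicate 2 had 2.03% of its FPKM sum in mitochondrial protein-coding genes against 5.77% to 8.12% in the other 9 removal libraries. The fibroblast markers (12 genes, among them Col1a1 and Pdgfra) were all at or above 1 FPKM in every library other than the 4-factor iPSCs, where 8 and 9 of 12 were. Of 10 naive pluripotency markers all 10 were at or above 1 FPKM in every iPSC library. Macrophage markers (8 genes) summed to 248 and 260 FPKM in CF1 MEFs on day 0 and to 4.49 to 24.2 FPKM in the libraries of the other groups. Their part in the day 0 levels was not tested. In such bulk samples fewer cells of a type and less RNA per cell cannot be told apart.

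SLRPs bind collagen fibrils and set their width and spacing, and they hold growth factors in the matrix. Decorin (Dcn), biglycan (Bgn) and asporin (Aspn) form a class whose members bind TGF-beta. Lumican (Lum), fibromodulin (Fmod), prolargin (Prelp) and osteomodulin (Omd) form a second class, in which several carry keratan sulfate. Osteoglycin (Ogn), podocan (Podn) and Ecm2 are further relatives. Fibroblasts are a main source of these proteins in connective tissue.

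Most members lie in clusters (GRCm38, the mm10 build). Dcn (chr10:97479609-97518143) and Lum (chr10:97565128-97572703) are neighbours on the plus strand, followed by the family genes Kera and Epyc. Ecm2, Aspn, Omd and Ogn follow each other on the plus strand within chr13:49504810-49624501, and all lie inside Cenpp, a centromere protein gene on the minus strand. Prelp (chr1:133910304-133921414, minus strand) and Fmod (chr1:134037254-134048277, plus strand) are neighbours. Bgn (chrX:73483602-73495933, plus strand) stands alone, and Podn (chr4:108014791-108096445, minus strand) overlaps Scp2 on its own strand, so its values are uncertain. The sources used here do not say whether reads were counted by strand. Cenpp itself had 14.0 ± 2.28 FPKM in 4-factor iPSCs, where the 4 genes inside it were at their lowest of that arm, against 3.92 ± 0.0230 FPKM on day 0 (SD, n = 2 each). In the CF1 arm Cenpp had 14.95 ± 0.6998 FPKM in iPSCs, 0.352 ± 0.160 on day 12 and 0.433 ± 0.198 on day 8, against 4.196 ± 0.1656 on day 0. There Aspn averaged 1.17 FPKM in iPSCs and 0.224 on day 8, so that both were higher in iPSCs than on day 8. Ogn and Omd went the other way, at 9.43 and 0.0603 FPKM on day 8 against 2.31 and 0.0185 in iPSCs, and Ecm2 libraries overlapped. On day 4 of that arm Cenpp had 3.56 ± 0.880 FPKM and Aspn averaged 0.282. The part of Cenpp reads in the values of the 4 genes was not tested.

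The 250 bases before the annotated start are shown for 3 neighbours of the chromosome 13 cluster, whose levels parted in the chemical arm, and for Bgn, which stood at 40.3 and 39.2 FPKM on its day 12, against 1043 and 1091 on day 0. They are RefSeq sequences of GRCm38.p6, plus strand, at chr13:49544193-49544442 (Aspn), chr13:49582212-49582461 (Omd), chr13:49607765-49608014 (Ogn) and chrX:73483351-73483600 (Bgn). Capitals mark matches to TATAAA (the TATA box), CTTTGA (the TCF/LEF core), GGAATG (the TEAD core) or TGANTCA (AP-1), searched on both strands.
Aspn: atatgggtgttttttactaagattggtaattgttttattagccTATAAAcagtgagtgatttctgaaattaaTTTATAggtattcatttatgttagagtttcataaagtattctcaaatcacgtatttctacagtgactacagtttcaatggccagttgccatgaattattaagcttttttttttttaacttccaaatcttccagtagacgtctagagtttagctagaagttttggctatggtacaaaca
Omd: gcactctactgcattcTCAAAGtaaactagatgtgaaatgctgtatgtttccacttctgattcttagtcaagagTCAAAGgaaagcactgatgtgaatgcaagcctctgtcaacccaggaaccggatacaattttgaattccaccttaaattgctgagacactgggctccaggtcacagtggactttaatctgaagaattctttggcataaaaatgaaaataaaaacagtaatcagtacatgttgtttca
Ogn: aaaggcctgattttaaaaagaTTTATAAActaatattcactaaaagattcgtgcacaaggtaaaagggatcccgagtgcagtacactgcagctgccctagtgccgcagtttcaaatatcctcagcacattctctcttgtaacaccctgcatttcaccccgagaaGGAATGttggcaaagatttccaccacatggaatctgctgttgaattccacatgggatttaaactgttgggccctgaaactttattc
Bgn: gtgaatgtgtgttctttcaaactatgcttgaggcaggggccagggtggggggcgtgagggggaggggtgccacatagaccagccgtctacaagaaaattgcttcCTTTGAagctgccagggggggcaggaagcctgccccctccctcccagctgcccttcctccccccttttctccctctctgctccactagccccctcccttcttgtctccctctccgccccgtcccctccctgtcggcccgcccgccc

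Of the 10 members, 8 matched a promoter entry, and 4 of these 8 held a match. TATAAA or its reverse complement was found in Aspn, at positions -207 and -178 before the start, and in Ogn, where 2 overlapping matches begin at -229 and -227. It occurs in 12.4% of 32851 promoter windows of this length. The TCF/LEF core was found in Omd (-234 and -176) and Bgn (-146), against 13.8% of all windows, and the TEAD core in Ogn (-86), against 12.6%. None of the members' windows held the AP-1 letters, which 6.75% of all windows hold. The Aspn window had 30% G and C, the Bgn window 64.4%, and the median window 52.4% (10th to 90th percentile 38.8% to 69.2%). A match describes letters and is not a binding site.

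Dcn and Lum were higher in late intermediates than on day 0 in both arms and dropped in iPSCs. Dcn encodes decorin, a collagen-binding proteoglycan with 1 chondroitin or dermatan sulfate chain. In the 4-factor arm it had 35.8 and 38.6 FPKM on day 0, 24.7 and 23.5 on day 2, 189.9 and 284 on day 4, 267 and 254 on day 7, and 0.468 and 0.450 in iPSCs. Its CF1 values were 46.0 and 45.8 FPKM on day 0, 334 and 329 on day 4, 418 and 426 on day 8, 1105 and 1173 on day 12, and 21.5 and 18.5 in iPSCs. It was lower on day 2 than on day 0, the day 4 and day 7 libraries overlapped each other, and in the CF1 arm each stage up to day 12 exceeded the one before. The log2 difference from day 0 was 2.78 ± 0.17 (SE) on day 7 of the 4-factor arm and 4.60 ± 0.07 on day 12 of the CF1 arm.

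Lum encodes lumican, a keratan sulfate proteoglycan that spaces collagen fibrils in cornea and skin. It had 34.7 and 34.8 FPKM on day 0 of the 4-factor arm, 54.0 and 51.6 on day 2, 447 and 584 on day 4, 624 and 572 on day 7, and 0.0824 and 0.0202 in iPSCs. CF1 cells had 15.3 and 15.02 FPKM on day 0, 174 and 176 on day 4, 269.8 and 279.7 on day 8, 346 and 377 on day 12, and 3.23 and 2.07 in iPSCs. Lum was the only member above its day 0 libraries on day 2 of the 4-factor arm, and it climbed at every CF1 stage up to day 12. Its log2 difference from day 0 was 4.06 ± 0.14 (SE) on day 7 and 4.48 ± 0.12 on day 12.

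Ogn, which encodes osteoglycin, followed the same pair in the 4-factor arm and departed from it in the CF1 arm. It had 59.8 and 64.1 FPKM on day 0 of the 4-factor arm, 45.3 and 46.5 on day 2, 129.9 and 198 on day 4, 202 and 162 on day 7, and 0.929 and 0.364 in iPSCs. In the CF1 arm it had 21.4 and 21.9 FPKM on day 0, 47.2 and 48.0 on day 4, 8.70 and 10.2 on day 8, 351 and 406 on day 12, and 2.44 and 2.18 in iPSCs. Day 8 was a trough below day 0, and the day 12 level was the highest of any group in the 3 tables, each on its own scale. The log2 difference from day 0 was 1.53 ± 0.23 (SE) on day 7 of the 4-factor arm and 4.06 ± 0.09 on day 12 of the CF1 arm.

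**Figure D1:**
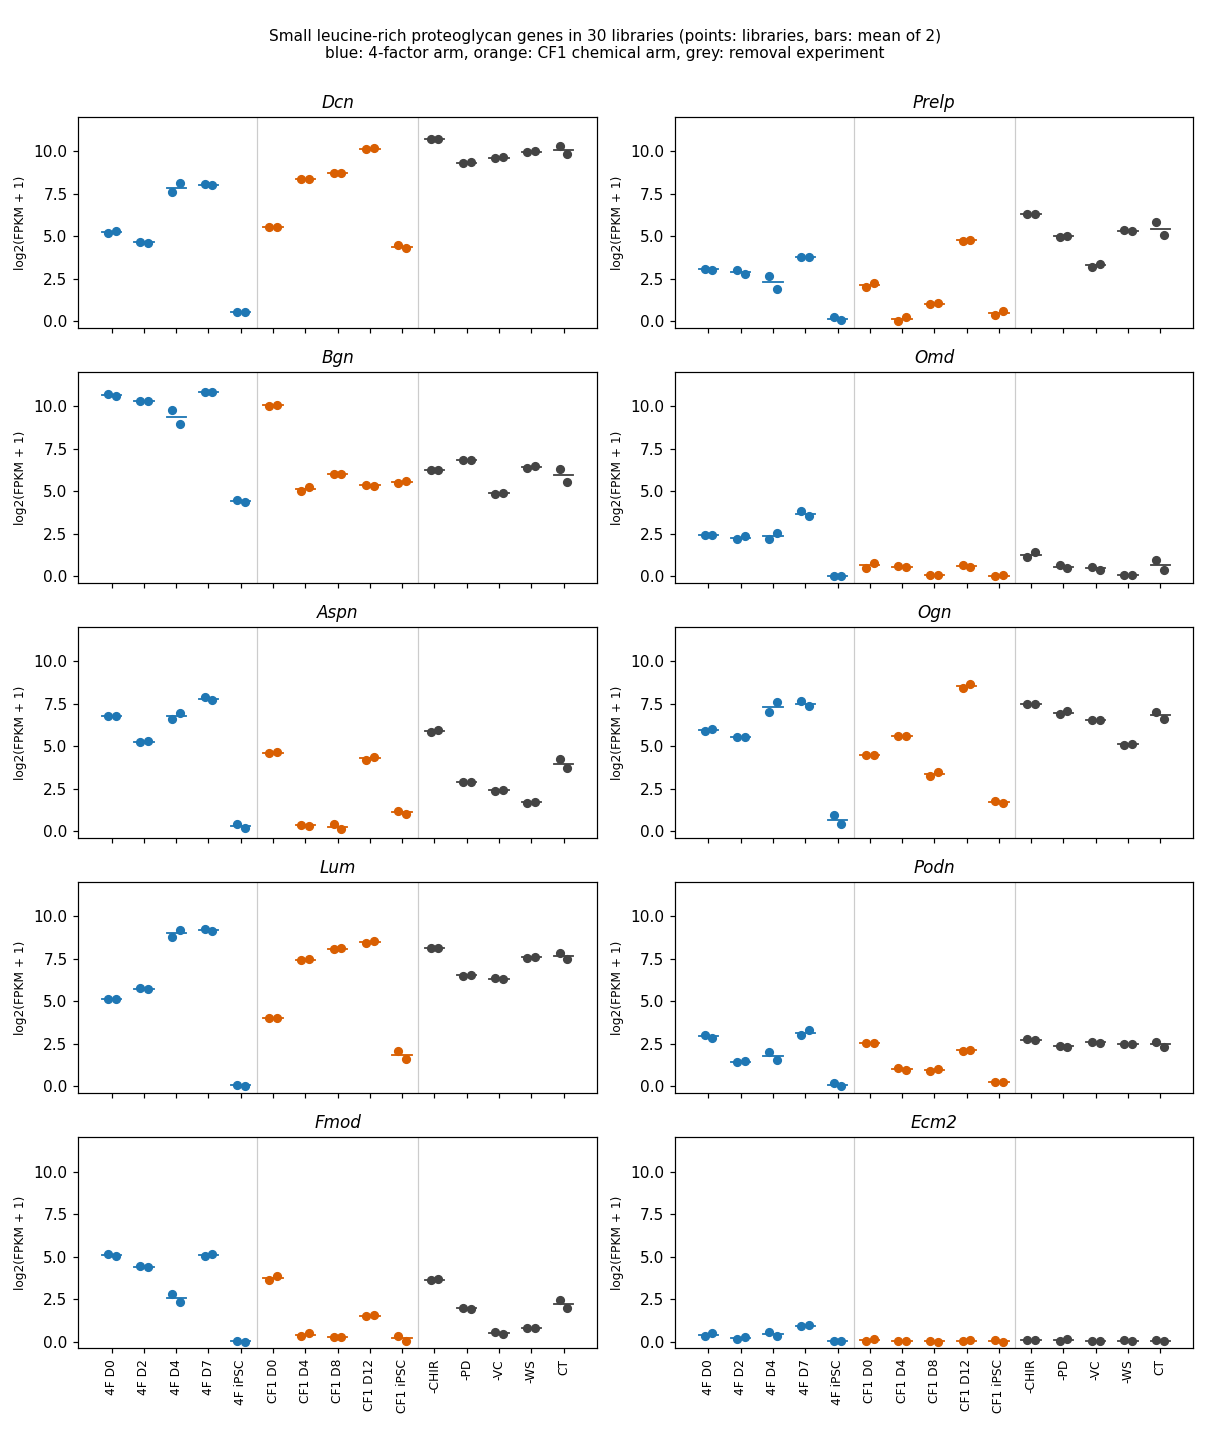
Level of each member as log2(FPKM + 1) in all 30 libraries, with days low to high and iPSCs last in each arm and the removal groups left of CT; points are libraries and bars the mean of 2. Dcn and Lum stand higher in the last intermediate than on day 0 in both arms, while Bgn stands at 30.9 and 37.0 FPKM on day 4 of the CF1 arm, against 1043 and 1091 on day 0.

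Bgn and Fmod were below day 0 in every CF1 intermediate, and Aspn was far below it on days 4 and 8. Bgn encodes biglycan, the closest relative of decorin, with 2 glycosaminoglycan chains. It had 1654 and 1566 FPKM on day 0 of the 4-factor arm, 1290 and 1276 on day 2, 878 and 496 on day 4, 1838 and 1862 on day 7, and 21.7 and 19.5 in iPSCs. Its CF1 levels were 1043 and 1091 FPKM on day 0, 30.9 and 37.0 on day 4, 64.2 and 64.7 on day 8, 40.3 and 39.2 on day 12, and 44.8 and 47.5 in iPSCs. On day 4 and day 12 of the chemical arm Bgn stood below its own iPSC libraries, while on day 7 of the 4-factor arm it was a little above day 0. The log2 difference from day 0 was 0.20 ± 0.24 (SE) on day 7 of the 4-factor arm and -4.71 ± 0.08 on day 12 of the CF1 arm.

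Fmod encodes fibromodulin, a keratan sulfate proteoglycan that binds collagen at the site lumican uses. It had 34.3 and 32.3 FPKM on day 0 of the 4-factor arm, 20.7 and 19.5 on day 2, 6.07 and 3.94 on day 4, 31.4 and 34.9 on day 7, and 0.0186 and 0 in iPSCs. CF1 cells had 11.5 and 13.2 FPKM on day 0, 0.229 and 0.392 on day 4, 0.187 and 0.223 on day 8, 1.79 and 1.97 on day 12, and 0.269 and 0.0126 in iPSCs. Day 4 was the lowest stage of its 4-factor intermediates, and the day 7 libraries overlapped those of day 0. No CF1 intermediate reached the day 0 level.

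Aspn encodes asporin, which has an aspartate stretch and is not a classical proteoglycan, since it lacks the usual chain attachment site. It had 109.9 and 111 FPKM on day 0 of the 4-factor arm, 36.9 and 39.0 on day 2, 96.7 and 123 on day 4, 236 and 209.7 on day 7, and 0.361 and 0.142 in iPSCs. Its CF1 values were 23.2 and 24.5 FPKM on day 0, 0.312 and 0.252 on day 4, 0.327 and 0.122 on day 8, 17.65 and 19.7 on day 12, and 1.28 and 1.07 in iPSCs. Aspn was near 0 on days 4 and 8 of the chemical arm, below its own iPSC libraries, and stood on day 12 by less than 2-fold under day 0.

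Prelp encodes prolargin, which anchors basement membranes to connective tissue. It had 7.44 and 7.05 FPKM on day 0 of the 4-factor arm, 7.004 and 5.82 on day 2, 5.44 and 2.74 on day 4, 12.7 and 13 on day 7, and 0.188 and 0.0511 in iPSCs. CF1 cells had 3.11 and 3.72 FPKM on day 0, 0.0223 and 0.184 on day 4, 0.992 and 1.09 on day 8, 25.7 and 26.4 on day 12, and 0.303 and 0.537 in iPSCs. Like Ogn it was below day 0 on day 8 and above it on day 12, with a log2 difference of 2.62 ± 0.12 (SE) from day 0. Its antisense neighbour Gm15851 did not exceed 0.0615 FPKM in any group mean.

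The remaining members were low. Omd encodes osteomodulin, a keratan sulfate proteoglycan of bone. It had 4.46 and 4.29 FPKM on day 0 of the 4-factor arm, 3.64 and 4.07 on day 2, 3.51 and 4.90 on day 4, 13.3 and 10.6 on day 7, and was listed at 0 in both iPSC libraries. In the CF1 arm it did not exceed 0.72 FPKM in any library and failed the filter of at least 1 FPKM in at least 2 libraries. Podn encodes podocan, which in mouse limits growth of smooth muscle cells. It had 7.23 and 6.36 FPKM on day 0 of the 4-factor arm, 1.66 and 1.81 on day 2, 3.10 and 1.97 on day 4, 7.16 and 8.81 on day 7, and 0.135 and 0.0146 in iPSCs. Its CF1 values were 4.94 and 4.90 FPKM on day 0, 1.15 and 0.964 on day 4, 0.869 and 1.02 on day 8, 3.30 and 3.39 on day 12, and 0.196 and 0.1995 in iPSCs. Like Bgn and Fmod, Podn was below day 0 in every CF1 intermediate. Ecm2 reached at most 0.94 FPKM (4-factor arm, day 7) and entered no fit.

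Counted with the rule used for all genes (limma, Benjamini-Hochberg adjusted p under 0.05 and at least 2-fold on log2(FPKM + 1)), the 9 members that passed the filter in the 4-factor arm divided as follows. On day 2, 0 were higher and 2 lower than on day 0, where 1.95% of 14761 genes were higher and 1.73% lower. On day 4, 3 were higher and 3 lower, beside 9.44% and 7.41% of all genes. On day 7, 5 were higher and 0 lower, beside 6.21% and 3.91%. Among these 5, Aspn lay at the limit of the rule, at 2.01-fold. All 9 were lower in iPSCs than on day 0, beside 19.4% of all genes lower and 22.2% higher, and than on day 7, beside 21.8% lower and 23.9% higher. The genes were chosen on these same groups, so nothing is read from these counts. Day 4 hangs on its libraries, since without replicate 2 only 1 member was lower and without replicate 1 it was 4. On values rescaled to TPM the split of all calls on days 2, 4 and 7 moved to 376 higher and 554 lower, 1446 and 2244, and 1232 and 1284. For iPSCs minus day 0 it turned from 3270 higher and 2857 lower on FPKM to 3516 higher and 4101 lower on TPM.

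In the CF1 arm 8 members passed the filter. On day 4, 3 were higher (Dcn, Lum, Ogn) and 5 lower than on day 0, beside 11.7% and 8.08% of 15442 genes. On day 8, 2 were higher and 6 lower, beside 11.9% and 12.4%. On day 12, 4 were higher (Dcn, Lum, Ogn, Prelp) and 2 lower (Bgn, Fmod), beside 10.1% and 15.5%. All 8 were lower in iPSCs than on day 0, beside 19.4% of all genes lower and 21.1% higher, and 7 of 8 were lower than on day 12, beside 20.8% lower and 28.4% higher. The exception was Bgn, whose 2 iPSC libraries lay above both day 12 libraries with a log2 difference of 0.21 ± 0.08 (SE). On TPM the split of all calls for iPSCs minus day 0 turned from 3252 higher and 2996 lower to 3381 higher and 4379 lower, and on day 8 it was 2245 higher and 2985 lower, against 1839 and 1916 on FPKM. On days 4 and 12 it was 2250 higher and 1940 lower, and 2035 higher and 3230 lower, on TPM.

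Markers of other cell types also differed between these stages. In the 4-factor arm the 6 adipocyte markers summed to 129 and 148 FPKM on day 7, against 3.14 and 5.00 on day 0, and 5 of 5 tested were called higher, with Fabp4 at 108 FPKM, against 2.25. The 7 chondrocyte markers summed to 77.1 and 79.5 FPKM on day 7, against 13.8 and 12.8 on day 0, with Comp and Hapln1 called higher and Col2a1 lower, and Matn1 at 0. On day 4 of the CF1 arm the 6 osteoblast markers summed to 48.1 and 52.9 FPKM, against 8.80 and 8.37 on day 0, of which Ibsp made up 39.6 on average. The 6 endothelial markers summed to 36.3 and 36.9 FPKM there, against 6.33 and 6.13, of which Kdr made up 34.7 on average. On day 12 of that arm these sums were 7.39 and 7.67 FPKM (osteoblast) and 7.75 and 7.55 (endothelial). Smooth muscle and myofibroblast markers went down, to 421 and 490 FPKM on day 7 of the 4-factor arm, against 2080 and 2196 on day 0, and to 95.7 and 96.0 FPKM on day 12 of the CF1 arm, against 2876 and 2808. The part of these cell types in the SLRP levels was not tested.

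The leading SLRP transcript differed between stages of the CF1 arm and between the day 4 libraries of the 4-factor arm. Of the summed FPKM of the 10 genes, Bgn made up 84.4% on day 0, 86.9% on day 2, 39.5% on day 4, 58.2% on day 7, with 92.9% in iPSCs of the 4-factor arm. The day 4 libraries parted, at 49.9% and 29.2% Bgn, and in the second of them Lum led with 34.4%. Its CF1 share was 89.3% on day 0, 5.75% on day 4, 8.33% on day 8, 2.02% on day 12, with 63.1% in iPSCs. Dcn took the first place in every CF1 intermediate, with 56.2% on day 4, 54.6% on day 8 and 57.9% on day 12, against 3.84% on day 0. The sum itself was 1906 ± 58.7 FPKM on day 0, 1477 ± 11.4 on day 2, 1729 ± 44.2 on day 4, 3180 ± 73.4 on day 7, with 22.2 ± 2.35 in iPSCs of the 4-factor arm (SD, n = 2 each), and in the CF1 arm 1195 ± 37.2 FPKM on day 0, 590.5 ± 1.99 on day 4, 773 ± 14.5 on day 8, 1969 ± 110.2 on day 12, with 73.1 ± 1.43 in iPSCs. In both arms the earlier intermediates lay below day 0, and the last one above it.

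**Figure D2:**
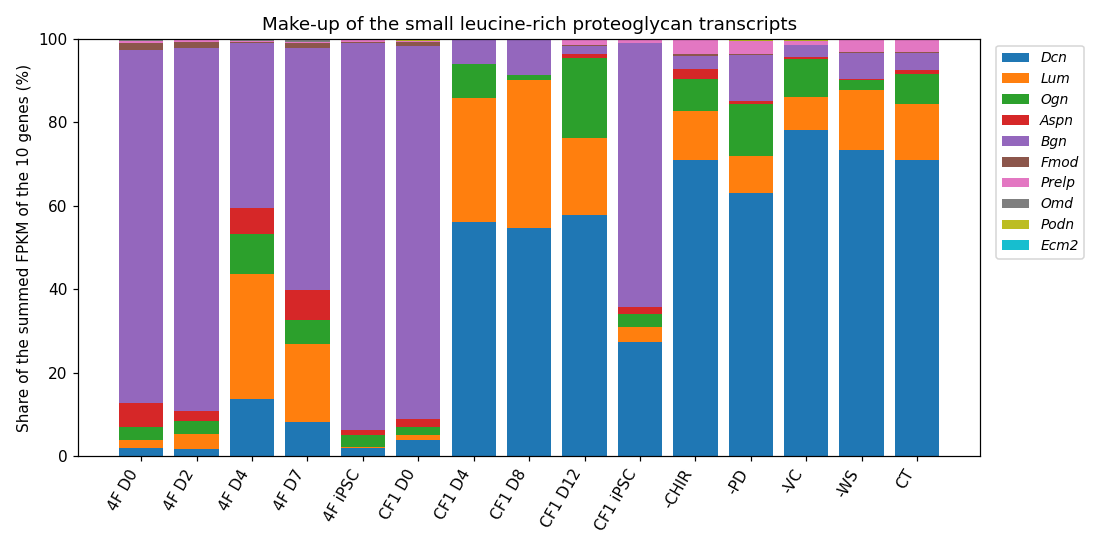
Share in percent of the summed FPKM of the 10 genes, as stacked bars of group means for the 15 groups. Bgn fills most of the bar on day 0 of both arms, and Dcn most of it in the CF1 intermediates and in every removal group.

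What remained in iPSCs was larger in the CF1 arm for Dcn, Lum, Ogn, Aspn and Bgn among others, each table on its own scale. It stood beside remaining fibroblast transcripts. Col1a1 was at 17.5 ± 1.37 FPKM in 4-factor iPSCs and 53.3 ± 1.04 in CF1 iPSCs (SD, n = 2 each), and the 12 fibroblast markers summed to 361 and 376 FPKM in 4-factor iPSCs and to 560.1 and 561.9 in CF1 iPSCs. Nanog, a marker of naive pluripotency, was at 334 ± 19.5 and 339 ± 1.60 FPKM in these iPSCs. The feeder cells' part in the remaining SLRP values was not tested.

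The 5 groups of the removal experiment are among the 15 over which the members were chosen, so the members' differences from CT are given as a description, with the SE of the limma fit and no p. A member is said to pass the call rule where it meets the adjusted p and 2-fold limits used for all genes, and nothing is read from how many do. Nothing in the labels ties the replicates to separate cultures, so errors and p-values measure how far these samples spread, and that spread may be technical. All 4 comparisons share the 2 CT libraries, which differed in several members. CT replicate 1 and replicate 2 had 1273 and 925 FPKM of Dcn, 227 and 180.4 of Lum, 79.0 and 46.6 of Bgn, and 55.5 and 32.3 of Prelp. The fibroblast markers went the other way, with sums of 20920 FPKM in CT replicate 1 and 27660 in replicate 2. The members are therefore also given without each CT library wherever that changes a call. Omd passed the filter only through the -CHIR libraries, where it was highest, so it is left out of the counts and medians, which cover 8 members.

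Without CHIR, Aspn and Fmod were higher than in CT past the call rule and no member was lower. Aspn had 56.1 and 60.4 FPKM in -CHIR libraries, against 17.9 and 12.09 in CT. Both -CHIR libraries lay far above both CT libraries, and the log2 fold change was 1.91 ± 0.14 (SE). Fmod had 11.1 and 11.7 FPKM in -CHIR libraries, against 4.46 and 2.92 in CT. Again the groups did not overlap, with a log2 fold change of 1.42 ± 0.14 (SE). limma called 0.662% of 13290 genes higher and 0.309% lower in this comparison, where 2 of the 8 members passed the rule as higher and 0 as lower. Dcn had 1656 and 1703 FPKM in -CHIR libraries, against 1273 and 925 in CT, and its log2 fold change of 0.63 ± 0.14 (SE) was under 2-fold. Prelp had 77.7 and 78.5 FPKM in -CHIR libraries, against 55.5 and 32.3 in CT, with a log2 fold change of 0.87 ± 0.19 (SE) under 2-fold, and without CT replicate 1 it passed the rule at 1.25 ± 0.08. Lum had 277 and 284 FPKM in -CHIR libraries, against 227 and 180.4 in CT, and Ogn had 176 and 179, against 128 and 98.1. Both lay above CT in each library by less than 2-fold, while Bgn, at 75.7 and 75.4 FPKM in -CHIR libraries, lay between the CT values of 79.0 and 46.6. The median of the 8 log2 fold changes was 0.65, beside 0.03 for all genes.

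Without PD, Lum and Aspn were lower than in CT past the call rule. Lum had 89.3 and 93.1 FPKM in -PD libraries, against 227 and 180.4 in CT. Both -PD libraries were below both CT libraries, with a log2 fold change of -1.14 ± 0.10 (SE). Aspn had 6.44 and 6.58 FPKM in -PD libraries, against 17.9 and 12.09 in CT, which gave -1.07 ± 0.14 (SE). Both were under 2-fold without CT replicate 1, at -0.98 ± 0.05 for Lum and -0.80 ± 0.08 for Aspn. Bgn pointed the other way, with 113 and 115 FPKM in -PD libraries, against 79.0 and 46.6 in CT. Its log2 fold change of 0.90 ± 0.19 (SE) was under 2-fold, and without CT replicate 1 it passed the rule at 1.27 ± 0.06. Of the 8 members 2 passed the rule as lower and 0 as higher, where 0.482% of 13290 genes were lower and 0.79% higher. On TPM the split of 105 higher and 64 lower calls of all genes turned to 131 higher and 162 lower. Dcn had 633 and 652 FPKM in -PD libraries, against 1273 and 925 in CT, with a change of -0.76 ± 0.14 (SE), which is under 2-fold. Ogn had 118 and 133 FPKM in -PD libraries, against 128 and 98.1 in CT, and Prelp had 30.3 and 31.8, against 55.5 and 32.3. Ogn overlapped between the groups, and Prelp lay just under the lower CT library. The members' median was -0.34, beside 0.08 for all genes.

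Without VC, 5 of the 8 members passed the call rule as lower than in CT and 0 as higher, where limma called 1.41% of all genes lower and 0.918% higher. Prelp had 8.29 and 9.42 FPKM in -VC libraries, against 55.5 and 32.3 in CT. The log2 fold change was -2.14 ± 0.19 (SE). Fmod had 0.496 and 0.388 FPKM in -VC libraries, against 4.46 and 2.92 in CT, with a change of -1.68 ± 0.14 (SE). By the ratio of mean FPKM, without the added 1, Fmod was 8.35-fold lower and Prelp 4.96-fold lower than in CT, the reverse of their order on the log2(FPKM + 1) scale. Aspn had 4.19 and 4.43 FPKM in -VC libraries, against 17.9 and 12.09 in CT, with a change of -1.57 ± 0.14 (SE). In each of these 3 genes the groups were well apart. Lum had 80.9 and 78.8 FPKM in -VC libraries, against 227 and 180.4 in CT, with -1.33 ± 0.10 (SE). Bgn had 28.2 and 28.9 FPKM in -VC libraries, against 79.0 and 46.6 in CT, with -1.06 ± 0.19 (SE). That last value rested on CT replicate 1, without which the change was -0.69 ± 0.06.

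Dcn and Ogn did not pass the rule in -VC. Dcn had 777 and 792 FPKM in -VC libraries, against 1273 and 925 in CT, and Ogn had 91.1 and 92.9 FPKM, against 128 and 98.1 in CT. Both were lower in each -VC library than in either CT library, by less than 2-fold. The members' median was -1.20, beside 0.13 for all genes. On TPM the split of all calls was 129 higher and 466 lower, against 122 higher and 187 lower on FPKM.

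Without WS, Aspn, Ogn and Fmod were lower than in CT past the call rule. Aspn had 2.24 and 2.37 FPKM in -WS libraries, against 17.9 and 12.09 in CT, with a log2 fold change of -2.25 ± 0.14 (SE). Ogn had 33.2 and 34.7 FPKM in -WS libraries, against 128 and 98.1 in CT, with -1.69 ± 0.11 (SE). Fmod had 0.731 and 0.733 FPKM in -WS libraries, against 4.46 and 2.92 in CT, with -1.42 ± 0.14 (SE). None of the 3 genes overlapped between groups. Of the 8 members 3 passed the rule as lower and 0 as higher, beside 0.467% and 0.444% of all genes. Dcn and Lum did not follow. Dcn had 978 and 1013 FPKM in -WS libraries, against 1273 and 925 in CT, and Lum had 190.3 and 198 FPKM, against 227 and 180.4, so that in both genes the -WS libraries lay between the CT libraries. Prelp, with 39.7 and 38.7 FPKM in -WS libraries, lay between the CT values of 55.5 and 32.3 as well, and Bgn, with 82.1 and 88.0, lay above those of 79.0 and 46.6 by less than 2-fold (0.48 ± 0.19 (SE)). Omd had 0.0682 and 0.0758 FPKM in -WS libraries, against 0.962 and 0.319 in CT, all under the filter's 1 FPKM. The members' median was -0.12, beside 0.06 for all genes.

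**Figure D3:**
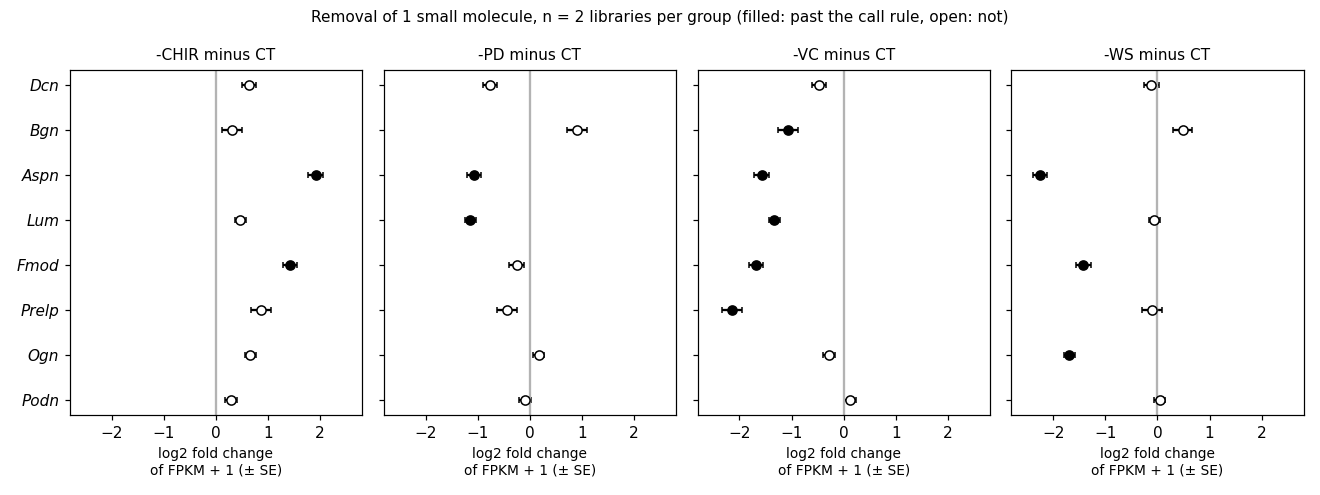
Log2 fold change against CT of 8 members in -CHIR, -PD, -VC and -WS, with bars of 1 SE from the limma fit; filled points pass the call rule (adjusted p under 0.05 and at least 2-fold). Aspn lies above CT in -CHIR (1.91) and below it in -PD (-1.07), -VC (-1.57) and -WS (-2.25).

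Across the removals Aspn was the member that passed the rule in all 4 comparisons, higher in -CHIR and lower in -PD, -VC and -WS. In -PD it was under 2-fold without CT replicate 1. Fmod passed the rule in -CHIR, -VC and -WS. Podn had 5.89 and 5.64 FPKM in -CHIR, 4.31 and 4.08 in -PD, 5.17 and 4.87 in -VC, 4.69 and 4.67 in -WS, and 5.21 and 3.95 in CT, and passed it in none. Its sign in -VC and -WS turned on TPM, to -0.01 and -0.09. Rescaling to TPM moved the median of all genes by -0.13 in -PD, -0.14 in -VC and -0.12 in -WS. Dcn stayed the leading SLRP transcript throughout, with 70.9% of the summed FPKM in -CHIR, 63.1% in -PD, 78.2% in -VC, 73.4% in -WS and 71.1% in CT. The fibroblast markers also differed in level, with sums of 17500 and 18400 FPKM in -CHIR, 14340 and 14870 in -PD, 11400 and 11560 in -VC, 18070 and 18220 in -WS, and 20920 and 27660 in CT. All 12 were at or above 1 FPKM in these 10 libraries, and limma called 3 of 12 lower in -VC (Col1a1, Col1a2, Col3a1) and 1 lower in -WS (Fn1). Without CT replicate 2 Col1a1 and Col1a2 were under 2-fold in -VC, at -0.99 and -0.94, and Fn1 lost its call without CT replicate 1 (-0.66) and without either -WS library. The 6 endothelial markers summed to 24.3 and 25.8 FPKM in -CHIR, 3.62 and 4.00 in -PD, 10.2 and 10.1 in -VC, 2.63 and 3.39 in -WS, and 8.87 and 7.47 in CT. In -CHIR, -VC and CT most of this was Tek, which was called higher in -CHIR (1.66) and lower in -PD (-1.43) and -WS (-1.56), while Cldn5 was at 0 in every removal library and Cdh5 averaged 0.714 to 1.76 FPKM. The part of either marker list in the SLRP differences was not tested.

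The relatives outside the 10 genes were mostly silent. Kera encodes keratocan, the cornea's keratan sulfate proteoglycan and the gene next to Lum. It had 6.47 and 6.95 FPKM in -CHIR, 0.728 and 0.664 in -PD, 0.0918 and 0.144 in -VC, 0.789 and 1.33 in -WS, and 3.51 and 1.83 in CT. limma called it higher in -CHIR (1.11 ± 0.21 (SE), adjusted p = 0.0109) and lower in -PD (-1.08 ± 0.21, adjusted p = 0.0103) and -VC (-1.68 ± 0.21, adjusted p = 0.000599). The -VC call held with each library of that comparison left out. The -CHIR call was lost without CT replicate 2 (0.77) and without either -CHIR library, and the -PD call without CT replicate 1 (-0.74) and without either -PD library. It was listed at 0 in CF1 MEFs and in the iPSCs of both arms, and had 7.99 and 7.66 FPKM on day 4 of the CF1 arm. Tsku, which encodes tsukushi, was the only relative above 10 FPKM, with 3.55 and 4.40 FPKM in CF1 iPSCs, against 33.6 and 35.6 in CF1 MEFs on day 0. Podnl1 did not exceed 3.76 FPKM in any library, Optc 1.56, Epyc 1.53, and Chadl, Nepn, Chad and Nyx 0.853.

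Partner genes were counted from lists set up with the members. The fibrillar and associated collagens, which SLRPs bind, had 5 of 12 tested genes lower in -VC, beside 1.41% of all genes, with Col14a1 at -1.86, Col3a1 at -1.31 and Col1a1 at -1.25. Col1a1, Col1a2 and Col3a1, all among the 5, are also the fibroblast markers called lower in -VC, so the lists share these calls. Without CT replicate 2, Col1a1 and Col1a2 were under 2-fold, at -0.99 and -0.94. Col14a1 was also called lower in -PD (-2.22) and -WS (-1.66) and higher in -CHIR (1.07), the last at 1.00 and no longer called without CT replicate 2. Of 11 tested proteases known to cut SLRP cores, 3 fell in -VC, where 1.41% of all genes did. These were Mmp13 (-2.29), Mmp3 (-2.21) and Adamts5 (-1.11). Calls of these proteases were not limited to -VC. Mmp3 was also called lower in -CHIR and Mmp13 in -PD, both by less than in -VC. Adamts5 was called higher in -CHIR, a call lost without -CHIR replicate 1. No protease of the list was called in -WS. Of 21 tested enzymes that build the chondroitin and dermatan sulfate chains, limma called 0 in any removal. That stands beside 0.309% to 1.41% of all genes called in a single direction. At an unadjusted p under 0.05 there were 10 in -CHIR, 10 in -PD, 11 in -VC and 7 in -WS. Of 11 tested keratan sulfate enzymes limma likewise called 0, with 3, 3, 6 and 5 at that unadjusted level in -CHIR, -PD, -VC and -WS. The share of all genes at the unadjusted level was not worked out, so nothing is read from these counts. Among the TGF-beta ligands and related factors held by SLRPs, Ccn2 rose in -CHIR (2.62) and Bmp4 in -PD (1.07, lost without -PD replicate 1), beside 0.662% and 0.79% of all genes called higher, and 0 of 8 tested genes were called in -VC and in -WS.

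In iPSCs the partners were lower too. Of 13 collagens, 13 were lower than on day 0 in the 4-factor arm and 12 in the CF1 arm, and of 21 chain-building enzymes 14 and 15 were, beside 19.4% of all genes lower in each arm. Chst14, a dermatan sulfotransferase, averaged 0.981 FPKM in 4-factor iPSCs against 24.6 on day 0, and 2.102 against 24.5 in the CF1 arm. B3gnt7, a keratan sulfate enzyme, went the other way, at 20.8 FPKM in 4-factor iPSCs against 0.169 on day 0 and at 11.7 against 0.694 in the CF1 arm. On day 12 of the CF1 arm Col3a1 had 4291 FPKM against 217.8 on day 0, and the SLRP-cutting proteases Mmp2 and Htra1 had 654 against 47.1 and 589.9 against 74.3 FPKM. Of 13 tested collagens 6 were higher there and 3 lower (Col5a3, Col2a1 and Col11a1), and of 12 tested proteases 6 were higher and 2 lower, beside 10.1% of all genes higher and 15.5% lower. The proteases that were lower were Tll1, at 0.993 against 30.7 FPKM, and Mmp9, at 0.153 against 4.24.

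Likeness of pattern was measured as Pearson's correlation over the 15 group means of log2(FPKM + 1). It is a description only, because the groups share tables and fibroblast origin. The members were also chosen on these 15 groups for a shared pattern, which by itself raises correlations between them. The median over the 36 pairs of the 9 expressed members was 0.56, running between -0.182 for Dcn and Bgn and 0.911 for Aspn and Fmod. Dcn and Lum, neighbours on chromosome 10, had 0.851, Lum and Ogn 0.824, and Bgn and Fmod 0.884. Within the 5 groups of a table the median was 0.915 in the 4-factor arm, 0.514 in the CF1 arm and 0.635 in the removal experiment. The median was thus highest in the 4-factor arm, where the iPSC group lies far from the rest, and the choice of members used that loss.

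**Figure D4:**
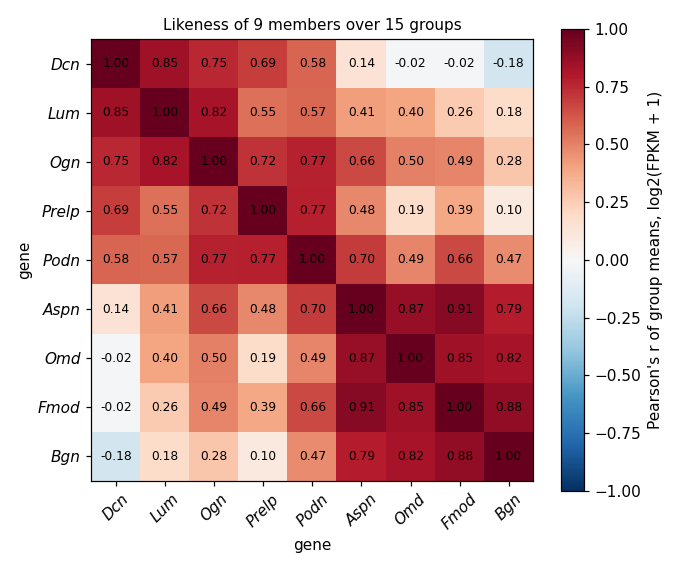
Pearson correlation of each pair of the 9 expressed members over 15 group means of log2(FPKM + 1). Aspn and Fmod have the highest value (0.911), and Dcn and Bgn the lowest (-0.182).

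Among 11035 candidate genes outside the list, the nearest to Dcn were Myo6 (r = 0.977), a motor protein gene, and Itm2b (0.965). Nearest to Lum was Matn2 (0.968), which encodes the matrix protein matrilin-2, and nearest to Ogn was Gulp1 (0.959). Adamts5, an aggrecan-cutting protease, was nearest to Aspn (0.951), and Rspo2, a Wnt agonist, to Omd (0.969). The nearest to Bgn was Cx3cl1 (0.963), to Fmod Sardh (0.933), to Prelp Gbp2 (0.958) and to Podn Cavin3 (0.93). Each value rests on 15 group means and says nothing of shared control.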

How the data were processed

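RNA-seq libraries of 150 bp reads were made by Novogene, per the labels' protocols. The submitters' processing notes name HISAT2 2.2.1 and StringTie 2.0, the read trimmer fastp 0.20.1 and, as the genome, mm10. The gene models and any use of strand are not given in the sources used here. The authors deposited FPKM per gene in 3 tables of 10 libraries, which hold no read counts. Of 55401 identifiers, 99.5% matched a GENCODE M21 symbol. Depth was read from steps in low FPKM values. The 2 libraries per group limit precision.

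Each table was fitted on its own with limma 3.58.1 (R 4.3.3; lmFit, contrasts.fit, eBayes with a trend) on log2(FPKM + 1), with 1 coefficient per group and genes of FPKM at least 1 in at least 2 libraries, which understates changes of low genes. A call needed a Benjamini-Hochberg adjusted p under 0.05 and at least 2-fold, two-sided. Each fit was tested on simulated data. Members, lists and tests were chosen with earlier results of these data known. The members were chosen on all 15 groups, so their fits are a description, also in the removal comparisons, for which a test had been planned. Named are all 10 members, the other SLRP genes, up to 3 genes of each list by size of change, and per member the nearest of the 5 genes of likest pattern with FPKM of at least 5. Alternatives were a pseudocount of 0.1, no filter, a filter of FPKM 5, TPM, a replicate block, the 2 groups alone, no trend, each library left out in turn, and Spearman correlation. Replicate numbers were not treated as pairs in the main fits. Promoter windows of 250 bases come from RefSeq (GRCm38.p6). Figures were drawn with matplotlib 3.10.9.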

Additional observations from a re-analysis of the deposited data

Results flagged for a closer look

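In the last intermediate, both Bgn libraries lay below day 0 in one arm and above it in the other. Its day 12 libraries of the CF1 arm (40.3 and 39.2 FPKM) lay below both day 0 libraries (1043 and 1091), while its day 7 libraries of the 4-factor arm (1838 and 1862) lay above both of theirs (1654 and 1566). The log2 difference from day 0 was lower by 4.91 in the CF1 arm (-4.91, CF1 minus 4-factor). The 4-factor difference of 0.20 ± 0.24 (SE) is within its error. Aspn had 17.65 and 19.7 FPKM on day 12 against 23.2 and 24.5 on day 0 of the CF1 arm, and 236 and 209.7 FPKM on day 7 against 109.9 and 111 on day 0 of the 4-factor arm (-1.34, CF1 minus 4-factor), where its CF1 difference of -0.34 is under 2-fold. Neither difference was tested. The days differ, and the method of reprogramming, the mouse stock and the table cannot be told apart.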

How the results depend on the processing

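With the replicate block no member gained or lost a call, and the all-gene calls became 131 in -CHIR, 168 in -PD, 307 in -VC and 120 in -WS. Deviations of same-numbered libraries correlated at -0.21 to 0.25 in the 4-factor arm, where 4 of 10 pairs of groups were above 0.1. The range was -0.11 to 0.07 in the CF1 arm and -0.06 to 0.05 in the removal experiment. Such correlations cannot show whether the numbers pair the libraries. All-gene calls of 129 in -CHIR, 169 in -PD, 309 in -VC and 121 in -WS became 258, 345, 655 and 264 with a pseudocount of 0.1, and 237, 293, 595 and 250 on TPM. Leaving out 1 library gave 114 to 243 in -CHIR, 152 to 359 in -PD, 287 to 504 in -VC and 114 to 301 in -WS, each highest without CT replicate 1. Members called in -PD without CT replicate 1 were 1 higher (Bgn) and 0 lower (Lum and Aspn at -0.98 and -0.80). The cause was not tested. The medians of the time courses moved as follows. With a pseudocount of 0.1 they were -6.28 and -8.04 for 4-factor iPSCs minus day 0 and minus day 7, -3.18, -1.95 and 1.27 for CF1 days 4, 8 and 12, and -3.63 and -4.79 for CF1 iPSCs minus day 0 and minus day 12. Without the filter they were 0.88 (day 7), -4.90 and -5.75 (4-factor iPSCs), -0.80, -1.12 and -0.04 (CF1 days 4, 8 and 12), and -2.24 and -2.52 (CF1 iPSCs). With the filter of FPKM 5 they were -2, -1.12, 2.62, -2.78 and -4.26 for the 5 CF1 comparisons in that order. On TPM they were -0.51 (day 2), 0.78 (day 7) and -5.87 (4-factor iPSCs minus day 0), and -1.99, -1.53, -0.10 and -3.26 (CF1 days 4, 8, 12 and iPSCs minus day 0). The CF1 day 12 median (1.14) thus changed sign without the filter and on TPM, where Omd, which failed the main filter, entered as well. None of the 8 members of the main CF1 fit changed sign on TPM in any CF1 comparison. The CF1 medians without the filter and on TPM therefore cover a changed set of members. So do those with the filter of FPKM 5, which Podn failed, at 4.94 FPKM or less in every CF1 library. The median of 4-factor day 4 (-0.06) ran between -0.25 and 0.13 with 1 library left out, positive without day 4 replicate 1. That of CF1 iPSCs minus day 0 (-2.54) ran between -2.61 and -2.51. Spearman correlation gave a median likeness of 0.55 in place of 0.56.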
